A study of Homo sapiens with 6 samples.

Results

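The cyclin, cyclin-dependent kinase (CDK) and CDK inhibitor families, with the partner proteins named after them, were described in Hep G2 cells given a mimic of *miR-195* or *miR-497*. Genes were taken by symbol, from those starting with CDK or with CCN and a further letter, and were kept when the RPKM in the total RNA of non-transfected cells was above 0. This gave 71 of the 21863 gene symbols measured. The members were thus chosen by family name and by RPKM in 1 library, and *CDK15*, *CDK20* and *CCNA1*, whose symbols also matched, were listed at 0 RPKM there and were left out. Just inside the limit lay *CDKL2* at 0.00858 RPKM, *CCNB3* at 0.00896 RPKM and *CDKN2B-AS1* at 0.0105 RPKM.

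Hep G2 is an established line from a human liver tumor. It was sequenced in 3 conditions: without transfection (NT, time given as 0 hours), 24 hours after transfection with 5 nM of dsRNA mimicking *miR-195*, and 24 hours after transfection with 5 nM of dsRNA mimicking *miR-497*. Each condition gave 1 total RNA library and 1 library of RNA precipitated with an antibody to Ago2 (Ago2-IP), the Argonaute protein that holds a miRNA together with the RNAs it pairs with. The 6 libraries hold no replicates and no transfection with a control dsRNA, so a mimic cannot be told apart from the transfection or from the later time.

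Cyclins are regulatory subunits that switch on CDKs, and their levels rise and fall through the cell cycle. D-type cyclins with CDK4 or CDK6 and E-type cyclins with CDK2 drive cells from G1 into S phase, cyclin A acts in S and G2 phase, and B-type cyclins with CDK1 drive mitosis. Inhibitors of the CIP/KIP and INK4 families hold these kinases in check. Other members, such as CDK8 and CDK9, act on transcription by RNA polymerase II, and CDK7 acts there and also activates the CDKs of the cell cycle. In the adult liver most hepatocytes rest outside the cycle, whereas a hepatoma line divides continuously.

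Both miRNAs are shown because they share the seed, bases 2 to 8 of the mature strand, here in capitals. RefSeq places both mature strands on the minus strand of GRCh38.p14, at chr17:7017667-7017687 and chr17:7017979-7017999.
hsa-miR-195-5p: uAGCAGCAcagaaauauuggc
hsa-miR-497-5p: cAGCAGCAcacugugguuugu
The 21 bases of the strands are alike at 12 positions, which include the seed AGCAGCA. An mRNA pairs with this seed through the 7 bases TGCTGCT. These letters were searched on the transcribed strand of the 3′UTRs of protein-coding transcripts (GENCODE 44 on GRCh37, the assembly also called hg19).

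Of the 71 members 70 had an annotated 3′UTR, and 20 of these (28.6%) held TGCTGCT, against 25.3% of the 18212 symbols with a 3′UTR. The 30 sites found were unevenly spread over the roles. They lay in 4 of the 5 G1 cyclins and 1 of the 5 cyclins of S, G2 and M phase. Further sites lay in 2 of the 5 cell cycle CDKs and 2 of the 8 CDK inhibitors. Outside these roles they lay in 4 of the 16 kinases and cyclins of transcription and 4 of the 14 genes of CDK5 and its relatives. They also lay in 3 of the 7 other cyclins, and in none of the 10 partner genes with a 3′UTR. The sites below are examples from the G1 cyclins and cell cycle CDKs, the members described first, with the 7 paired bases in capitals and the neighbouring bases of the same 3′UTR in lower case.
*CCNE1*, chr19:30314931-30314937, plus strand: cgtgctcccgaTGCTGCTatggaaggtgct
*CCNE1*, chr19:30315169-30315175, plus strand: tgttttgtaagTGCTGCTatatctatccat
*CCND1*, chr11:69468083-69468089, plus strand: ttcacattgttTGCTGCTattggaggatca
*CCND3*, chr6:41903058-41903064, minus strand: attgacagcttTGCTGCTgaaggctcattt
*CDK6*, chr7:92238065-92238071, minus strand: tcagagtgcccTGCTGCTgtctcagaggca
*CDK4*, chr12:58142966-58142972, minus strand: gggagcacagcTGCTGCTggaaatgctgac
The 3 sites of *CCNE1* and *CCND1* were followed by an A, which 7 of the 30 sites were, and those of *CCND3*, *CDK6* and *CDK4* were not. The *CDK4* site lay outside the canonical 3′UTR, in that of another annotated transcript.

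Values are RPKM as deposited, reads scaled to gene length and to the reads of the library. Whole reads inferred from the RPKM summed to between 16616300 and 20841729 per total RNA library and between 1642559 and 3350899 per Ago2-IP library, lowest in the Ago2-IP library of *miR-497*. Intervals in parentheses after a fold are 95% intervals for counting error only. A gene was called lower or higher when its fold lay at least 1.5-fold from the median fold of all genes, which was 0.995 in total RNA with *miR-195*, 1.03 in total RNA with *miR-497*, 1.42 in Ago2-IP RNA with *miR-195* and 0.842 in Ago2-IP RNA with *miR-497*. A total of 58 members reached the mean of 1 RPKM over the 6 libraries that was required, and the remaining 13 were not compared. Counts under other settings, such as without that median (without centring), are given without the share of all genes. Those after scaling each library to its upper quartile were also taken without centring and come without that share. With 1 library per condition no difference could be set against a spread between cultures, and no p-value was calculated. The hepatic origin was visible in NT total RNA, with *AFP* at 4884 RPKM, *APOB* at 1199 RPKM and *SERPINA1* at 671 RPKM, although *TTR* stood at 1.52 RPKM, and the leukocyte genes *PTPRC* and *CD3E* were listed at 0 in all 6 libraries.

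Without mimic, cell cycle genes were among the most abundant members in total RNA. *CDK4*, the kinase of the D-type cyclins, was highest at 133 RPKM, followed by *CCNB1* at 131 RPKM, the unconventional cyclin *CCNG1* at 124 RPKM and *CCNA2* at 105 RPKM. The mitotic kinase *CDK1* (78.3 RPKM), *CCNI* (72.4 RPKM), *CCNB2* (60.9 RPKM), *CDK2AP1* (57 RPKM) and *CDK6* (52.3 RPKM) came next. Neighbours in this order differed little, and without replicates their order is not established. The median member stood at 10.9 RPKM.

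Within a family the genes differed widely in level. Among the D-type cyclins *CCND1* stood at 43.8 RPKM, *CCND3* at 10.7 RPKM and *CCND2* at 0.75 RPKM. Of the A-type cyclins *CCNA2* carried the whole signal, since *CCNA1*, known as the germ cell form, was listed at 0. *CCNB3*, likewise a germ line cyclin, stood at 0.00896 RPKM beside *CCNB1* and *CCNB2*. The inhibitors were uneven in the same way, with the CIP/KIP genes *CDKN1B* at 36.3 RPKM and *CDKN1A* at 25.3 RPKM but *CDKN1C* at 0.0209 RPKM, and with the INK4 genes *CDKN2C* at 6.13 RPKM, *CDKN2D* at 1.73 RPKM, *CDKN2B* at 0.254 RPKM and *CDKN2A* at 0.253 RPKM. All 16 kinases and cyclins of transcription were above 1 RPKM, whereas 10 of the 14 genes of CDK5 and its relatives were.

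**Figure D1:**
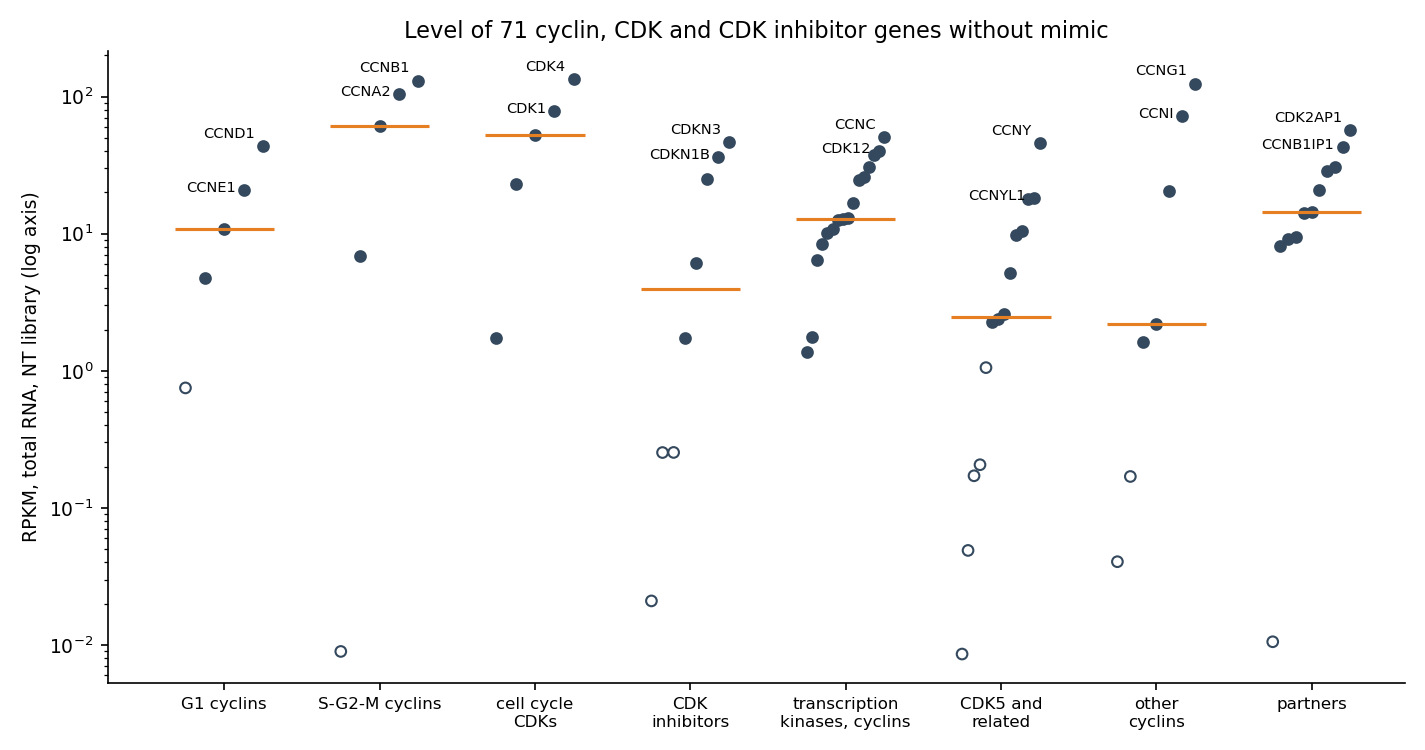
RPKM in the total RNA of non-transfected cells (log axis) for the 71 members by role, each point 1 gene in 1 library, with a horizontal line at the median of the role and open points for genes under a mean of 1 RPKM over the 6 libraries. *CDK4*, *CCNB1* and *CCNG1* lie at the top, between 124 and 133 RPKM, and 13 genes are open.

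In total RNA the members lay lower with the mimics, most of all with *miR-195*. With *miR-195* 16 of 58 members were lower and 3 higher, where 6.31% of all 10821 genes tested were lower and 6.4% higher. With *miR-497* 7 were lower and 4 higher, where 3.99% of 10826 genes were lower and 10.1% higher. Under *miR-195* the median fold of the members was 0.856, and under *miR-497* it was 0.899. In RNA from whole cultures, fewer cells in a phase of the cycle and less RNA per cell cannot be told apart. Scaling each library to its upper quartile moved the median log2 change of all genes with *miR-195* from -0.01 to 0.10. Without centring, this scaling left 11 members lower and 5 higher with *miR-195* and 6 lower and 5 higher with *miR-497*. The mimic libraries are compared with the same NT library, so an extreme NT value would enter both. The 7 members lower with both mimics were *CCNA2*, *CCNE1*, *CDK1*, *CDK6*, *CDK8*, *CDKL1* and *CDKN3*, of which 5 passed with both after that scaling, without *CDKL1* and *CDKN3*. The share of all genes lower with both was not calculated, so their number is not read as a result.

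The G1 cyclins split into genes that were far lower and a gene that hardly differed. *CCNE1*, cyclin E1, the partner of CDK2 at the start of S phase, measured 21 RPKM in NT, 6.76 RPKM with *miR-195* and 10.2 RPKM with *miR-497* in total RNA, from 1030, 394 and 630 inferred reads. Both mimic libraries were low, and the *miR-195* library was the lower, at a fold of 0.322 (0.286 to 0.363) against 0.489 (0.442 to 0.54). *CCND3*, cyclin D3, measured 10.7 RPKM in NT, 3.42 RPKM with *miR-195* and 8.22 RPKM with *miR-497*. Here the *miR-195* library alone stood far below NT, with a fold of 0.318 (0.273 to 0.369), the lowest of all 58 members, and the fold with *miR-497* was 0.765 (0.684 to 0.856).

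*CCND1*, cyclin D1, the main cyclin D of these cells, measured 43.8 RPKM in NT, 47 RPKM with *miR-195* and 42.3 RPKM with *miR-497* in total RNA. Its folds of 1.07 (1.03 to 1.12) and 0.967 (0.93 to 1.01) were near those of the typical gene, although its 3′UTR holds TGCTGCT followed by A. *CCNE2*, the second cyclin E, had 4.77, 3.5 and 3.3 RPKM in the same order, with folds of 0.733 (0.616 to 0.87) and 0.691 (0.581 to 0.821) that did not pass 1.5. *CCND2* lay under the required level, at 0.75, 1.19 and 1.14 RPKM. Of the 4 G1 cyclins tested 2 were therefore lower with *miR-195*, 1 was lower with *miR-497*, and none was higher.

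The cyclins of S, G2 and M phase were lower together with *miR-195*. All 4 that were tested passed the fold, with a median fold of 0.582, and 3 of them, all but *CCNF*, did so after upper quartile scaling. *CCNA2*, which partners CDK2 and CDK1, measured 105 RPKM in NT, 55.9 RPKM with *miR-195* and 65.3 RPKM with *miR-497*. *CCNB1*, the main mitotic cyclin, measured 131 RPKM in NT, 74.4 RPKM with *miR-195* and 94 RPKM with *miR-497*. *CCNB2* measured 60.9, 36.2 and 44 RPKM in the same order. In each of the 3 genes NT was highest and *miR-195* lowest, with folds for *miR-195* of 0.531 (0.51 to 0.552), 0.569 (0.548 to 0.591) and 0.595 (0.558 to 0.635). With *miR-497* the folds were 0.621 (0.599 to 0.644), 0.718 (0.694 to 0.744) and 0.722 (0.68 to 0.767), and only *CCNA2* passed. *CCNF*, cyclin F, the substrate receptor of a ubiquitin ligase, had 6.92, 4.33 and 6.7 RPKM, a fold of 0.626 (0.559 to 0.70) with *miR-195* and of 0.967 (0.876 to 1.07) with *miR-497*. Of these cyclins *CCNF* alone carries TGCTGCT in a 3′UTR. *CCNB3* was represented by 1 or 2 inferred reads per total RNA library and gave no usable fold.

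Among the 5 cell cycle CDKs 3 were lower with *miR-195* and 2 with *miR-497*. *CDK6*, a kinase of the D-type cyclins, measured 52.3 RPKM in NT, 22.7 RPKM with *miR-195* and 25.9 RPKM with *miR-497* in total RNA, from 15225, 7822 and 9445 inferred reads. Both mimic libraries lay far below NT, with folds of 0.433 (0.421 to 0.445) and 0.495 (0.483 to 0.508). *CDK1* measured 78.3 RPKM in NT, 34.2 RPKM with *miR-195* and 44 RPKM with *miR-497*, at folds of 0.437 (0.414 to 0.461) and 0.562 (0.535 to 0.59). No 3′UTR of *CDK1* holds TGCTGCT, and its fold with *miR-195* was close to that of *CDK6*, which holds it.

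*CDK4* differed between the mimics. It measured 133 RPKM in NT, 86.9 RPKM with *miR-195* and 129 RPKM with *miR-497*, so that the *miR-497* library stood beside NT and the *miR-195* library below both, with folds of 0.651 (0.623 to 0.68) and 0.97 (0.933 to 1.01). *CDK2*, the partner of cyclins E and A, had 23, 15.7 and 20.6 RPKM and folds of 0.681 (0.628 to 0.74) and 0.898 (0.833 to 0.968), the first just short of the limit. *CDK3*, a scarce kinase, had 1.73, 1.82 and 2.55 RPKM and intervals that reached beyond 1 with *miR-195*, at 1.06 (0.758 to 1.48). With upper quartile scaling the *CDK4* fold no longer passed, and *CDK3* passed as higher with *miR-497*.

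The CDK inhibitors did not move as a group. *CDKN1A*, the CIP/KIP inhibitor induced by p53, measured 25.3 RPKM in NT, 32.7 RPKM with *miR-195* and 36.2 RPKM with *miR-497*. It was higher in both mimic libraries by less than 1.5-fold from the median, with folds of 1.29 (1.22 to 1.38) and 1.44 (1.35 to 1.53). *CDKN1B*, its relative that holds resting cells in G1, measured 36.3, 29.5 and 29.9 RPKM in NT, *miR-195* and *miR-497*, with folds of 0.813 (0.765 to 0.863) and 0.823 (0.776 to 0.874). *CDKN2C*, an INK4 inhibitor of CDK4 and CDK6, measured 6.13, 2.99 and 4.79 RPKM in the same order. Its fold with *miR-195*, 0.488 (0.411 to 0.578), passed, and that with *miR-497*, 0.782 (0.675 to 0.905), did not.

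*CDKN3* is counted with the inhibitors by its symbol, but encodes a phosphatase that removes the activating phosphate of CDKs. It measured 46.3 RPKM in NT, 27.3 RPKM with *miR-195* and 31.5 RPKM with *miR-497*, at folds of 0.59 and 0.68, both lower, and no reads could be inferred for it. Without centring the fold of *CDKN3* with *miR-497* no longer passed. *CDKN2D* had 1.73, 1.87 and 2.5 RPKM and passed in neither comparison. The remaining inhibitors were scarce, *CDKN2A* at 0.253, 0.361 and 0.529 RPKM, *CDKN2B* at 0.254, 0.394 and 0.308 RPKM and *CDKN1C* at 0.0209, 0 and 0 RPKM.

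The kinases and cyclins of transcription mostly stayed within the fold with either mimic. Of the 16 kinases and cyclins of transcription 15 stayed within the fold with *miR-195*, at a median fold of 0.875. The exception was *CDK8*, the kinase of the Mediator complex, which measured 12.6 RPKM in NT, 5.28 RPKM with *miR-195* and 7.43 RPKM with *miR-497*, with folds of 0.418 (0.361 to 0.485) and 0.589 (0.517 to 0.671). Its paralog *CDK19* had 10.2, 8.29 and 8.16 RPKM and its cyclin partner *CCNC* 50.7, 39 and 41 RPKM, and neither passed with a mimic. *CDK10* was the only member of the role that was higher, with 1.38, 1.94 and 3.12 RPKM and a fold of 2.27 (1.68 to 3.08) with *miR-497*, from 61 and 173 inferred reads. *CDK11A* and *CDK11B* are near-identical copies whose reads the counting could have split either way.

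In the role of CDK5 and its relatives 9 genes were tested, of which 3 were lower with *miR-195*. *CDKL1*, a kinase related to the CDKs, measured 2.58, 1.65 and 1.67 RPKM in NT, *miR-195* and *miR-497* and was lower with both, at 0.641 (0.446 to 0.916) and 0.65 (0.456 to 0.923). *CDK17* and *CDK5R1*, the latter the activator of CDK5, were lower with *miR-195* and not past the fold with *miR-497*, at 0.639 (0.584 to 0.699) and 0.594 (0.48 to 0.734), and all 3 genes carry TGCTGCT. After upper quartile scaling *CDK17* and *CDKL1* no longer passed with *miR-195*. *CDK18* was higher with *miR-497*, with 5.15, 7.5 and 9.02 RPKM, a fold of 1.75 and no inferred reads.

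*CCNG1*, a cyclin known as a p53 target, measured 124, 79.6 and 89.1 RPKM and was lower with *miR-195*, at 0.641 (0.619 to 0.664), a call lost after upper quartile scaling, while its relative *CCNG2* had 2.2, 3.38 and 2.95 RPKM and was higher, at 1.54 (1.33 to 1.78). *CCNJL* was the only member higher with both mimics, with 1.62, 2.43 and 2.53 RPKM, folds of 1.5 (1.21 to 1.87) and 1.57 (1.26 to 1.95), and 3 occurrences of TGCTGCT of which 2 overlap. The fold of *CCNJL* with *miR-195* lay at the limit and did not pass without centring. Of the 10 partners tested none passed with *miR-195*, and only *CDK2AP2*, a CDK2-associated protein, passed with *miR-497*, with 9.42, 11.5 and 15.5 RPKM and a fold of 1.65 (1.44 to 1.89).

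**Figure D2:**
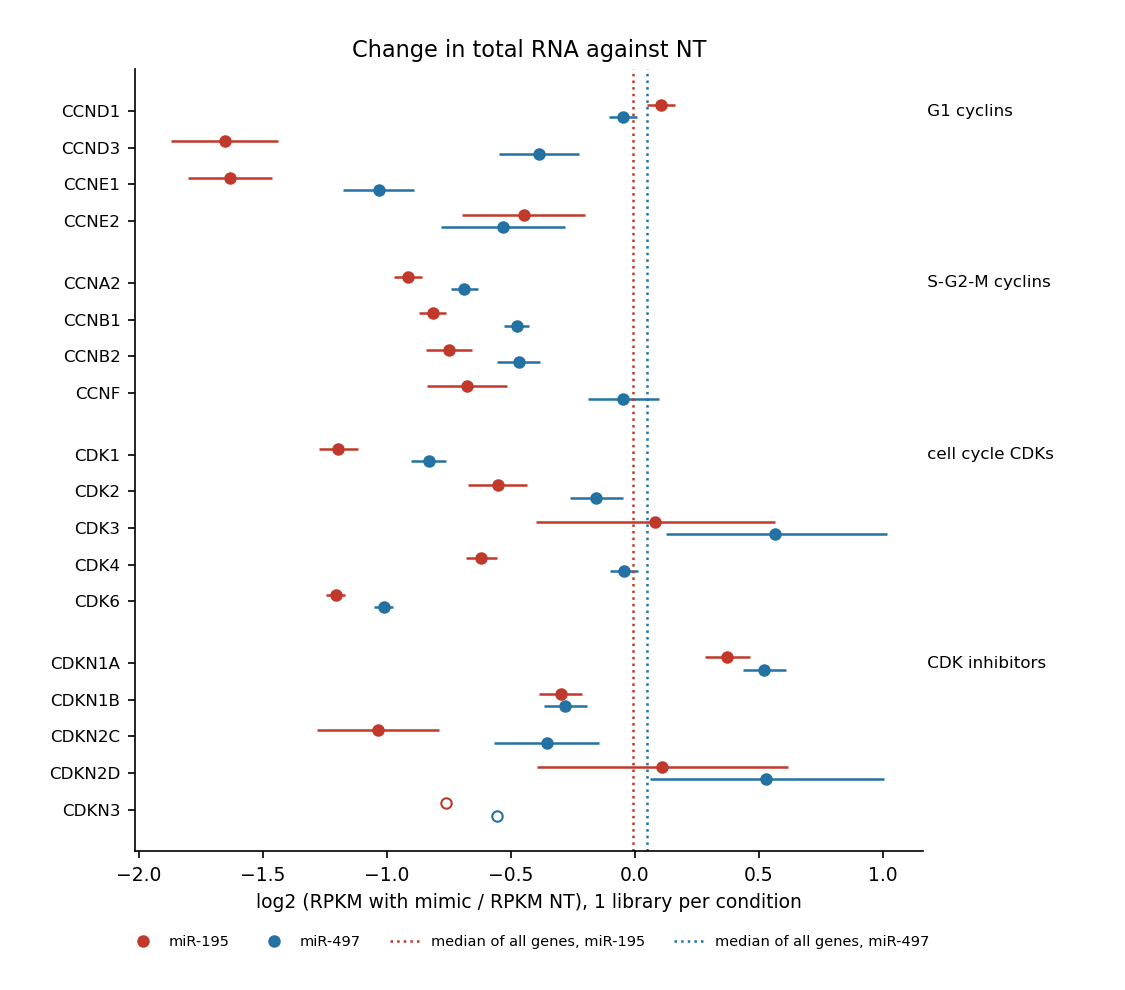
Log2 change in total RNA against NT (x axis) for the 18 tested members of the 4 cell cycle roles, with *miR-195* in red and *miR-497* in blue, each point 1 library against 1 library. Horizontal bars are 95% counting intervals, open points have no inferred reads, and dotted lines mark the median of all genes. *CCND3* and *CCNE1* lie farthest left with *miR-195*, and *CCND1* lies beside the dotted lines.

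The direct comparison of the mimics does not use the NT library. Of the 58 members 3 were lower in total RNA with *miR-195* than with *miR-497* and none was higher, where 4.09% of 10836 genes were lower and 2.51% higher. They were *CCND3*, at a fold of 0.416 (0.357 to 0.483), *CDK10*, at 0.622 (0.482 to 0.799), and *CDKN2C*, at 0.624 (0.525 to 0.74). Other G1 and S-G2-M cyclins and CDKs did not pass, with *CCNE1* at 0.66 (0.581 to 0.75), *CCNF* at 0.647 (0.581 to 0.721) and *CDK4* at 0.671 (0.644 to 0.70) under 1 but *CCND1* at 1.11 (1.07 to 1.15) and *CCNE2* at 1.06 (0.886 to 1.27) above it. Without centring *CCNE1* and *CCNF* passed as lower too. Toward the other end stood *CCNYL1*, a relative of cyclin Y, at 1.28 (1.2 to 1.36) and *CCNDBP1*, a protein that binds cyclin D1, at 1.21 (1.1 to 1.33). The median fold of the members was 0.906 and that of all genes 0.948.

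In Ago2-IP RNA *CCND1* and *CCNE1* were among the 3 highest members with *miR-195*, and more members lay lower than higher relative to the median of all genes. With *miR-195* 7 of 58 members were higher and 13 lower, where 18.6% of all 10881 genes tested were higher and 15.2% lower. With *miR-497* 1 was higher and 9 lower, where 6.5% of 10850 genes were higher and 7.67% lower. These counts are relative to the median of all genes, at log2 0.50 for *miR-195* and log2 -0.25 for *miR-497*. Taken without that centring, 18 members were higher and 3 lower with *miR-195*, and none was higher and 15 were lower with *miR-497*. The uncentred counts include the shift of all genes and are not a result about the members. After upper quartile scaling the counts were 8 higher and 10 lower with *miR-195* and 1 higher and 9 lower with *miR-497*.

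Among the G1 cyclins *CCND1* and *CCNE1* stood out in the Ago2-IP library of *miR-195*. *CCND1* measured 11.4, 49.4 and 11.3 RPKM in the Ago2-IP libraries of NT, *miR-195* and *miR-497*, from 825, 2883 and 515 inferred reads. *CCNE1* measured 8.53, 34.5 and 9.74 RPKM in the same order, from 285, 934 and 206 inferred reads. *CCND3* measured 2.28, 4.82 and 1.47 RPKM. In all 3 genes the *miR-195* library was the highest, at folds of 4.32 (4.0 to 4.67), 4.05 (3.54 to 4.64) and 2.11 (1.63 to 2.76), of which the last passed only without centring and after upper quartile scaling. The *miR-497* library did not follow, at 0.986 (0.882 to 1.1), 1.14 (0.95 to 1.37) and 0.645 (0.43 to 0.951). *CCNE2*, which holds no TGCTGCT, measured 2.52, 1.43 and 1.07 RPKM and was lower in both, at 0.57 (0.396 to 0.811) and 0.425 (0.27 to 0.651). The scarce *CCND2*, which holds TGCTGCT followed by A, stood at 0.528, 1.34 and 0.576 RPKM.

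Genes of other roles reached the same height in that library. *CDKN2AIPNL* had 1.04, 4.45 and 1.2 RPKM and a fold of 4.27 (2.14 to 9.26) from 11 and 38 inferred reads, and *CDK5*, a kinase best known in neurons, had 0.747, 2.89 and 0.787 RPKM and a fold of 3.87 (2.13 to 7.46) from 15 and 47 inferred reads. Neither holds TGCTGCT. Split by the site, the median log2 change in Ago2-IP RNA with *miR-195* was 0.20 over the 17 members with TGCTGCT and 0.25 over the 41 without it. With the canonical 3′UTR alone it was 0.44 over 14 members and 0.25 over 44, so that the order of the medians turned. Over all genes it was 0.50 with the site and 0.51 without it, for either set of 3′UTRs. With *miR-497* the medians were -0.39 over the members with TGCTGCT in any 3′UTR and -0.18 over the others, beside -0.25 and -0.26 over all genes. The liver gene *SERPINA1*, which is no member, stood at 32.1 RPKM in the Ago2-IP library of NT, 134 RPKM in that of *miR-195* and 35.5 RPKM in that of *miR-497*, and *ALB* at 5.47, 15.5 and 5.22 RPKM. Of the 6 hepatocyte genes listed, *APOB* alone was not higher in RPKM in the Ago2-IP library of *miR-195* than in that of NT. The median fold of all genes between these libraries was 1.42, which *AFP*, at 331 RPKM in NT and 446 RPKM with *miR-195*, did not reach. The part of such abundant liver transcripts in the values of the members was not tested.

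None of the 5 cell cycle CDKs passed as higher in Ago2-IP RNA relative to the median of all genes, and *CDK4* did so with *miR-195* without centring. *CDK6* measured 23.7, 25.2 and 17.8 RPKM in Ago2-IP RNA and *CDK4* 18.3, 35.3 and 14 RPKM, so that *CDK4* was highest with *miR-195*, at 1.93 (1.71 to 2.18), while *CDK6* stood at 1.06 (1.02 to 1.11), under the median of all genes. *CDK1* measured 7.59, 4.04 and 6.27 RPKM and was the lowest of the 58 members with *miR-195*, at 0.532 (0.423 to 0.667). *CDK2* measured 3.01, 3.43 and 2.74 RPKM and *CDK3* 1.17, 1.36 and 0.598 RPKM, the latter from 31, 29 and 10 inferred reads. *CDKL1*, although its 3′UTR matches the seed in a non-canonical transcript, had 1.26, 0.686 and 1.2 RPKM and was among the lowest with *miR-195*, at 0.544 (0.242 to 1.15).

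The cyclins of S, G2 and M phase lay under the median of all genes in both precipitates. *CCNA2* measured 21.2, 19.9 and 10.8 RPKM, *CCNB1* 16.3, 17.7 and 10.1 RPKM, *CCNB2* 6.64, 5.24 and 3.97 RPKM and *CCNF* 2.66, 3.07 and 1.71 RPKM. Of the 4 genes 2 were lower past the fold for *miR-195*, and 1 for *miR-497*. Without centring no gene of the 4 passed with *miR-195*, and all 4 passed as lower with *miR-497*.

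The inhibitors *CDKN1A* and *CDKN1B* were lower in the Ago2-IP library of *miR-497*. *CDKN1A*, whose 3′UTR holds TGCTGCT, measured 14.4, 27.8 and 6.34 RPKM in NT, *miR-195* and *miR-497*, and *CDKN1B* measured 10.8, 9.56 and 4.9 RPKM. Their folds with *miR-497* were 0.441 (0.371 to 0.521) and 0.452 (0.368 to 0.553). *CDKN1A* with *miR-195* stood at 1.93 (1.75 to 2.14) and *CDKN1B* at 0.882 (0.761 to 1.02), on either side of the median of all genes. Relative to that median *CDKN1B* and *CDKN3* were lower past the fold with *miR-195*, 2 of the 5 inhibitors tested, where 15.2% of all genes were lower. Neither passed without centring, and *CDKN1A* was not past the fold from the median. *CDKN2C* had 0.912, 1.22 and 0.531 RPKM and *CDKN3* 3.47, 2.97 and 3.06 RPKM. *CDKN2D*, the only member counted as higher with *miR-497*, had 0.292, 0.413 and 0.396 RPKM from 7, 8 and 6 inferred reads, and its interval of 0.376 to 4.71 covered the median. After *CDKN2D* came *CDKN2AIPNL* at 1.15 (0.401 to 3.14) and *CCNG2* at 1.14 (0.881 to 1.48). The lowest members with *miR-497* were *CDK2AP2*, at 0.386 (0.18 to 0.758), *CCNE2* and *CDK11A*, at 0.432.

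**Figure D3:**
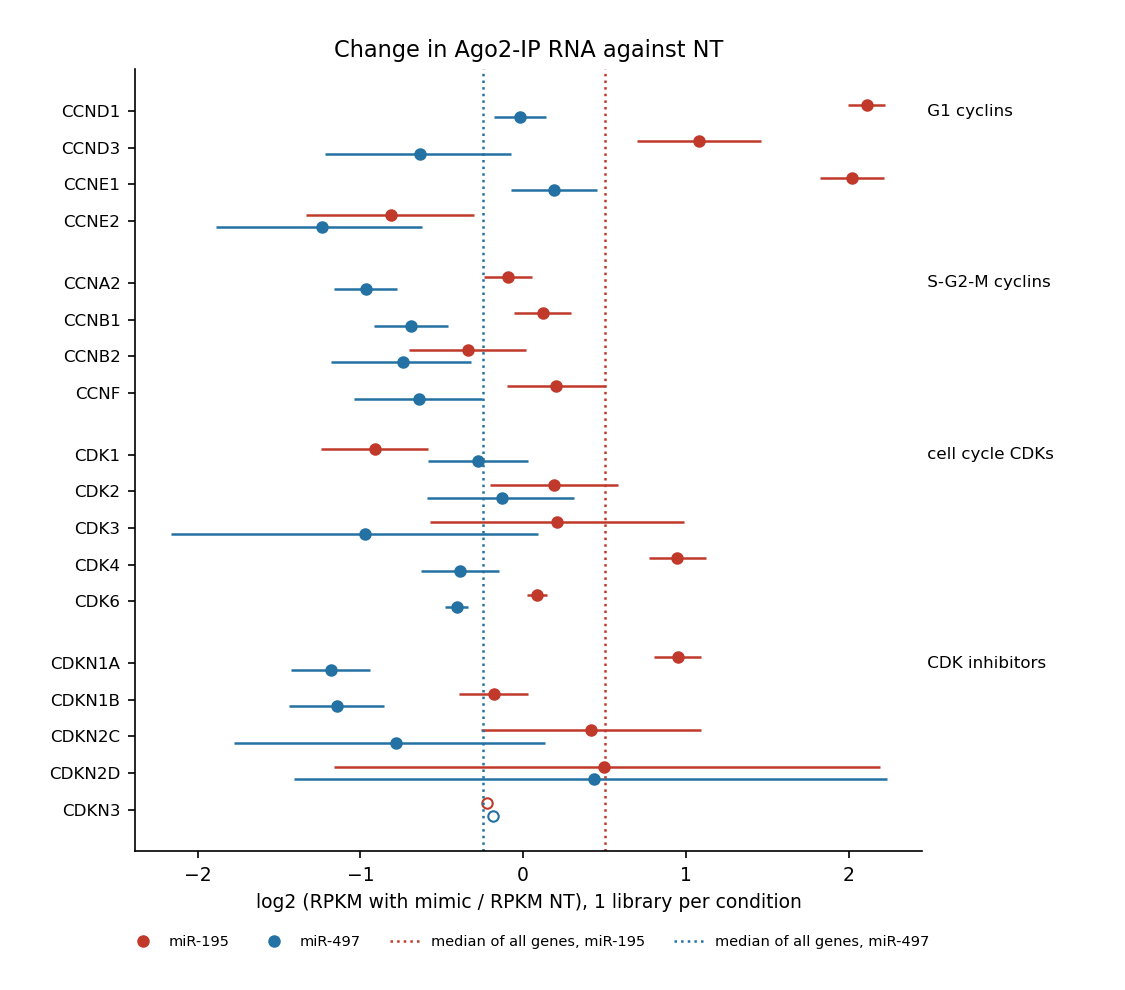
Log2 change in Ago2-IP RNA against NT (x axis) for the 18 tested members of the 4 cell cycle roles, with *miR-195* in red and *miR-497* in blue, each point 1 library against 1 library. Bars are 95% counting intervals, open points have no inferred reads, and the dotted lines mark the medians of all genes, at 0.50 and -0.25. *CCND1* and *CCNE1* lie near 2 with *miR-195*, and *CDK1* and *CCNE2* lie farthest to the left of the red line.

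The fold enrichment score sets the 2 fractions against each other, as the Ago2-IP to total RNA ratio of a mimic over that of NT. It uses the same libraries as the changes above and is no independent measurement. With *miR-195* 10 of 58 members scored higher and 7 lower, where 16.1% of 10811 genes were higher and 12.2% lower, around a median of all genes of 1.41. Without centring 22 were higher and 1 lower, counts that include the shift of all genes. The 3 highest were *CCNE1* at 12.6 (10.5 to 15), *CCND3* at 6.64 (4.94 to 8.93) and *CDKN2AIPNL* at 5.3 (2.64 to 10.6). They were reached by different routes. In *CCNE1* and *CCND3* total RNA was lower and Ago2-IP RNA higher than in NT, and in *CDKN2AIPNL* the Ago2-IP value carried most of the score. In *CCND1*, at 4.02 (3.69 to 4.38), the Ago2-IP value carried the whole score, since total RNA was not lower than in NT. *CDK4* scored 2.96 (2.61 to 3.36), *CDK8* 3.01 (2.3 to 3.94), *CDK6* 2.45 (2.33 to 2.58) and *CDKN2C* 2.73 (1.71 to 4.38). In *CDK6* and *CDK8* the total RNA values made up most of the score, and the Ago2-IP values with *miR-195* differed from NT by less than 1.5-fold. Low scores were those of *CCNL1*, a cyclin of RNA splicing, at 0.702 (0.614 to 0.802) and *CCNE2* at 0.779 (0.532 to 1.14).

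With *miR-497* 7 members scored higher and 8 lower, where 8.81% of 10786 genes were higher and 18.3% lower, around a median of 0.828. The split was 6 higher and 11 lower after upper quartile scaling and 3 higher and 13 lower without centring. *CCNE1* was again the highest, at 2.34 (1.9 to 2.87), followed by *CDK8* at 1.66 (1.24 to 2.21) and *CDK6* at 1.52 (1.44 to 1.61). *CCND1* and *CCND3* scored 1.02 (0.907 to 1.15) and 0.844 (0.569 to 1.25). The lowest were *CDK2AP2*, at 0.234 (0.12 to 0.459), *CDKN1A*, at 0.307 (0.257 to 0.366), and *CDK10*, at 0.335 (0.158 to 0.707). Lower in total RNA and higher in Ago2-IP RNA past the fold at once was *CCNE1* alone with *miR-195*, 1 of 58 members where 0.749% of 10811 genes did so, and no member with *miR-497*, where 0.278% of 10786 genes did. With *miR-195* *CCND3* did so as well after upper quartile scaling, and *CCND3* and *CDK4* without centring.

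**Figure D4:**
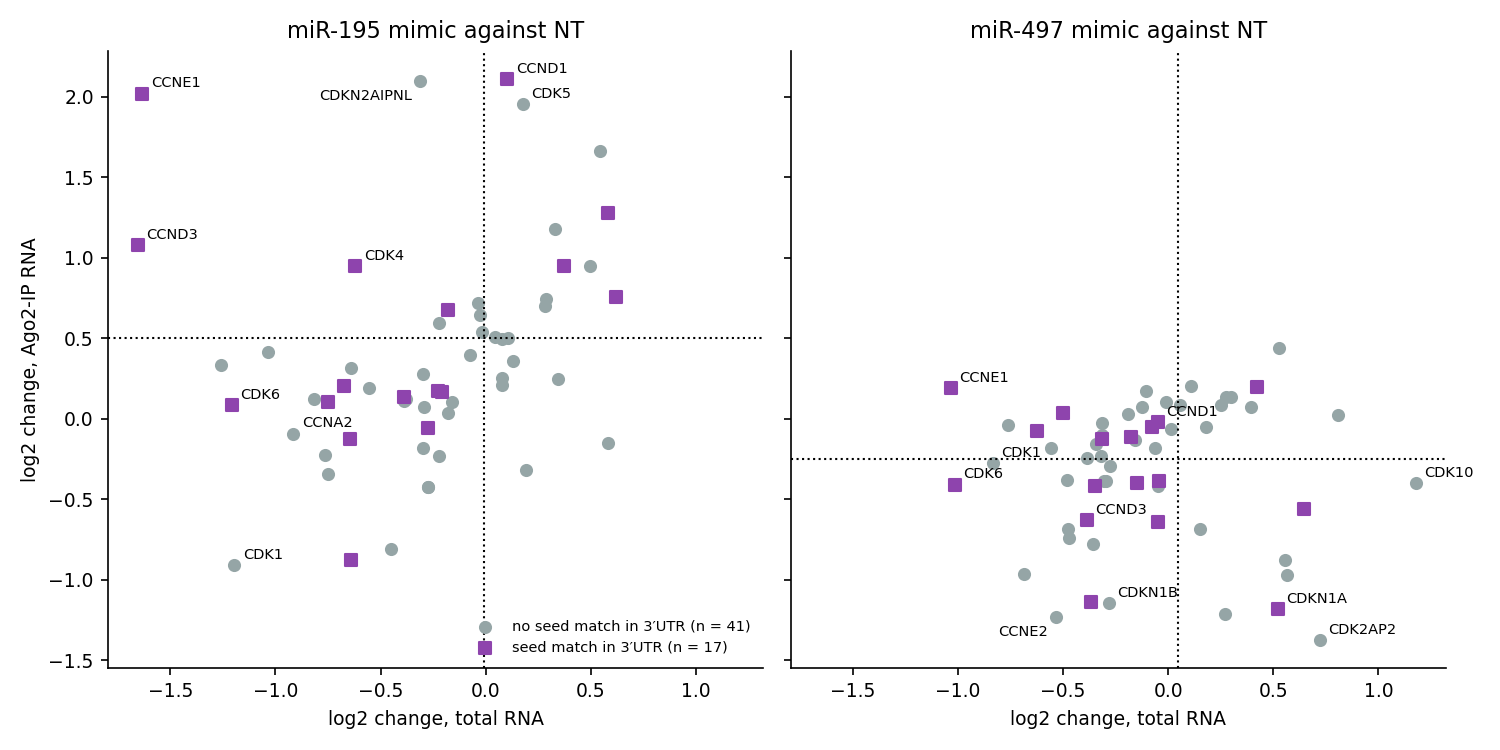
Log2 change in total RNA (x axis) and in Ago2-IP RNA (y axis) against NT for the 58 tested members with *miR-195* (left) and *miR-497* (right), each point 1 gene, with purple squares for the 17 genes whose 3′UTR matches the seed and dotted lines at the medians of all genes. *CCNE1* lies at -1.63 and 2.02 with *miR-195*, apart from the other members, and at -1.03 and 0.19 with *miR-497*.

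Already without a mimic the members differed in how much of them was found in the Ago2 precipitate. The median Ago2-IP to total RNA ratio of RPKM in NT was 0.279 over the 58 members and 0.277 over all 10825 genes. Relative to the latter 19 members were higher and 16 lower, where 29.4% of all genes were higher and 29.6% lower. High ratios were those of *CDKAL1* at 0.966 (0.853 to 1.09) and *CDK5R1* at 0.941 (0.755 to 1.17). The lowest were those of *CDK5* at 0.0713 (0.0394 to 0.12), *CDKN2AIPNL* at 0.0728 (0.0358 to 0.133) and *CDKN3* at 0.0749. *CDK5* and its activator *CDK5R1* thus stood far apart. A ratio of RPKM across the 2 kinds of library depends on what else each library holds, so only the order of the genes is given by it.

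Split by the seed match, the members differed in this ratio. The 17 tested members with TGCTGCT had a median log2 ratio of -1.12, and the 41 without it -2.03, a difference of 0.91. Over all genes tested the same medians were -1.69 and -2.01, a difference of 0.32. For the shorter word GCTGCT the difference was 1.17 in the members and 0.36 over all genes. For the longer word TGCTGCTA, held by 5 tested members, it was 0.84 in the members and 0.48 over all genes. In the members the difference thus did not grow with the length of the word. Of the 17 members 10 were higher than the median of all genes past the fold and 1, *CDK4*, was lower. Among the 41 others 9 were higher and 15 lower. Over all genes 33.7% with a site were higher and 22.1% lower, and 23.7% without were higher and 34.6% lower. *CDK6* had a ratio of 0.453 (0.438 to 0.468), *CCNE1* of 0.407 (0.355 to 0.464) and *CDKN1A* of 0.569 (0.519 to 0.624). The mitotic genes *CDK1*, *CCNB2* and *CCNB1*, which hold no site, had 0.0969 (0.0851 to 0.11), 0.109 (0.0927 to 0.127) and 0.124 (0.114 to 0.135). Other genes went the other way. The 4 tested G1 cyclins ranged from a log2 ratio of -2.24 in *CCND3*, which holds a site, to -0.92 in *CCNE2*, which holds none. Of these 4 *CCNE2* alone was higher past the fold, so *CCNE1* was not. The members with a site also had longer 3′UTRs, with a median canonical length of 3228 bases against 877, and lower total RNA, with a median of 10.9 RPKM against 18.1. The part of 3′UTR length and of abundance in this difference was not tested.

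**Figure D5:**
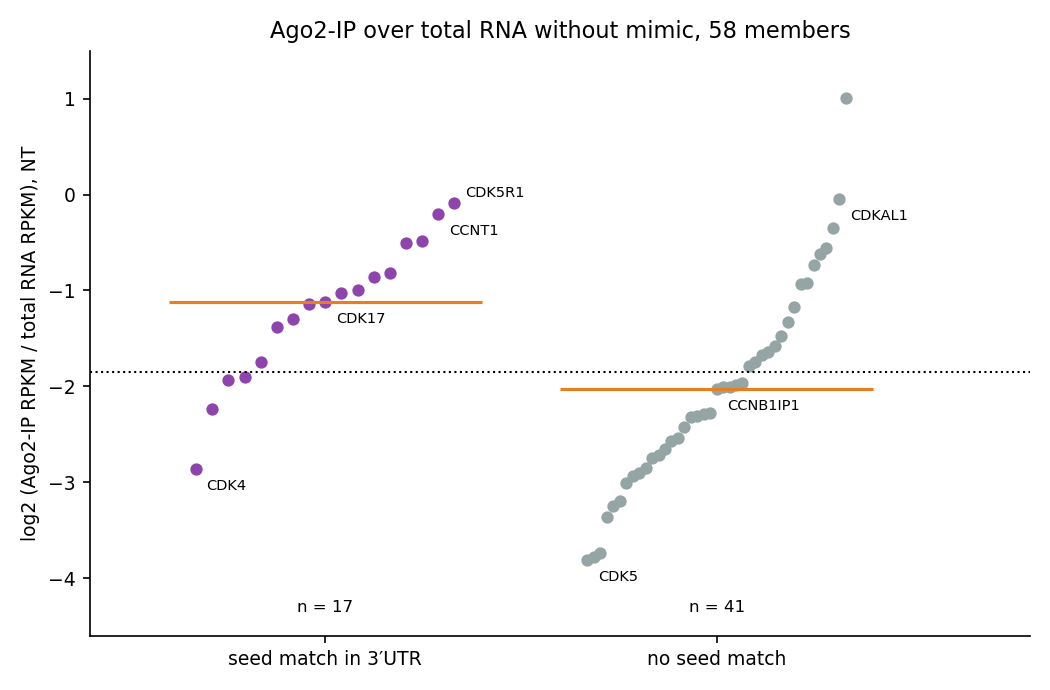
Log2 ratio of Ago2-IP to total RNA RPKM in non-transfected cells (y axis) for the 58 tested members, each point 1 gene from 1 library pair, ordered within the 17 genes whose 3′UTR matches the seed (purple) and the 41 others (grey). Orange lines are the medians, -1.12 and -2.03, and the dotted line is the median of all genes, -1.85.

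In their change in total RNA the members with and without the site lay closer together. With *miR-195* the median log2 change of the members with TGCTGCT was -0.39 and that of the others -0.18, a difference of -0.21, beside -0.10 over all genes. In the canonical 3′UTR alone the difference was -0.12 for the members and -0.12 for all genes. With *miR-497* the medians were -0.18 and -0.13, a difference of -0.05, beside -0.09 over all genes, and in the canonical 3′UTR alone it was -0.13 beside -0.10. The members lower with *miR-195* were 8 of the 17 with a site and 8 of the 41 without, and those lower with *miR-497* were 3 and 4. Over all genes 9.53% with a site and 4.63% without were lower under *miR-195*, while 5.17% and 3.06% were lower under *miR-497*. The site-bearing genes that were lower included *CCND3*, *CCNE1* and *CDK6*, and those without a site included *CDK1*, *CDK8*, *CCNA2*, *CCNB1* and *CDKN2C*. The 5 tested members with the longer word TGCTGCTA had a median log2 change of -0.65 under *miR-195*, and of -0.36 under *miR-497*. The 53 members without it had -0.22 and -0.13, and over all genes the 600 with it had -0.16 and -0.14. Under *miR-195* the 5 members ranged from -1.63 in *CCNE1* to 0.10 in *CCND1*.

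Part of a list of other regulators of the same pathway was lower in total RNA. The list held 27 genes, all measured. It covered the RB and E2F families, CDC25 phosphatases, their opposing kinases, ubiquitin ligase subunits and replication licensing factors. Also listed were *TFDP1*, *TFDP2*, *CKS1B*, *CKS2*, *MNAT1* and *MYBL2*. With *miR-195* 12 of the 27 were lower and none higher, and with *miR-497* 7 were lower and none higher. Of all genes 6.31% and 3.99% were lower. The other 15 did not pass with *miR-195*. After upper quartile scaling 10 and 5 were lower. The median log2 change of the list was -0.54 under *miR-195*, and it was -0.19 under *miR-497*. Lower with both were *CDC25A*, a phosphatase that activates CDKs, *WEE1*, the kinase that opposes it, *E2F7*, *CDC6*, *RBL1* and *BTRC*. *CDC25A* had a log2 change of -1.56 with *miR-195* and of -0.76 with *miR-497*, *WEE1* of -1.40 and -1.02, and *E2F7* of -1.26 and -0.60. In Ago2-IP RNA 9 of the 27 were lower under *miR-195* and 7 under *miR-497*, and none was higher, beside 15.2% and 7.67% of all genes lower. Without centring 4 were lower and 6 higher under *miR-195*, and 14 lower under *miR-497*, with the shift of all genes included. The members and these genes were chosen with earlier results of the same libraries known.

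The cyclins of S, G2 and M phase were lower with *miR-195* while mostly lacking the seed match, and their promoters were looked at after these values were seen. RefSeq windows from 250 bases before to 50 after the gene start (GRCh38.p14) were found for 65 of the 71 members and were searched on both strands for the word CCAAT, for the word TTTGAA and for the word TTTNGCGC. Of the 5 cyclins of this role 4 held CCAAT and 2 held TTTGAA, against 35.7% and 15.4% of all 27305 promoters. Over all 65 members the shares were 41.5% and 12.3%. No cyclin of this role held TTTNGCGC, which was found in 7.69% of the members, *CDK1* among them, and in 1.83% of all promoters. A match describes the letters and not a bound site. The capitals mark the word each line is shown for, in the mitotic cyclins, *CCNA2* and *CDK1*.
*CCNB1*, chr5:69167051-69167079, plus strand: gaccggcagccgCCAATgggaagggagtg
*CCNB1*, chr5:69167083-69167111, plus strand: gccacgaacaggCCAATaaggagggagca
*CCNB2*, chr15:59105014-59105042, plus strand: aagaaaattcagCCAATgagagtgcgaga
*CCNB2*, chr15:59105047-59105075, plus strand: atcttgtgttggCCAATgagaacagcgac
*CCNB2*, chr15:59105105-59105134, plus strand: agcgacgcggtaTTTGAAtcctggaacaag
*CCNA2*, chr4:121823923-121823951, minus strand: gcgagcgctttcATTGGtccatttcaata
*CDK1*, chr10:60778169-60778197, plus strand: atttgaactgtgCCAATgctgggagaaaa
In *CCNB1* the CCAAT words started 87 and 55 bases before the gene start, and in *CCNB2* those shown started 120 and 87 bases before it. In *CDK1* CCAAT started 150 bases before it, and *CDK1* also held TTTGAA, which started 161 bases before it and lies in lower case in the line above. In *CCNA2* the word lay on the opposite strand and is printed as its reverse complement ATTGG, which started 56 bases before the gene start.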

How the data were processed

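RNA of 3 conditions of Hep G2 cells was sequenced as total RNA and as Ago2-IP RNA, 1 library each, from 36-base single reads. Poly-A selection is named as optional in the protocol, and which library had it is not given in the sources used here. The authors aligned the reads with ELANDv2 to hg19 and deposited RPKM per gene, made with CASAVA (version 1.7 in the submitters' processing notes). Whether strand was used in counting is not given in the sources used here, so *CDKN2B-AS1* and genes it overlaps are uncertain.

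RPKM values of the 28 symbols on more than 1 line were averaged. Every value column was matched to a library. Genes above 0 in each library compared and with a mean of at least 1 RPKM over the 6 libraries were tested, and the log2 change was read against the median of all genes with a limit of 1.5-fold. No pseudocount was used. Whole read numbers were inferred from the spacing of RPKM values for 13337 of 15486 symbols (86.1%), with 380 dropped for an implied length outside 1.5-fold of the annotation. For 2 libraries the 95% interval is the exact conditional binomial one, and for the score a log-scale one. They cover counting error only. The code was tested on simulated data. Python 3.11.15, numpy 2.4.6, pandas 2.3.3, scipy 1.17.1 and matplotlib 3.10.9 were used.

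The 3′UTRs were those of GENCODE 44 on GRCh37, and 1825 symbols outside the families were matched through an older symbol. Named were all members of the 4 cell cycle roles, and of other roles those past the limit in the same direction with both mimics in total RNA and the 3 highest and 3 lowest per comparison. Any further gene was named with its values in view. Some items that this rule covers are not reported here. The members and lists were chosen with earlier results of these data known. Alternatives were other filters, pseudocounts, scalings, folds, site words and 3′UTR sets, lines of 1 symbol kept apart, and leaving out the partners.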

Additional observations from a re-analysis of the deposited data

Results flagged for a closer look

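*CCNE1* and *CDK2AP2* moved in opposite directions in total RNA and Ago2-IP RNA, past the limit in each. The difference between the fractions was not tested, since each rests on 1 library per condition. *CCNE1* with *miR-195* had a log2 change of -1.63 in total RNA and of 2.02 in Ago2-IP RNA, a difference of 3.65. *CDK2AP2* with *miR-497* had a log2 change of 0.72 in total RNA and of -1.37 in Ago2-IP RNA, a difference of -2.09. In Ago2-IP RNA *CDK2AP2* rested on few inferred reads, 45 in NT and 11 with *miR-497*. *CCNE1* rested there on 285 in NT and 934 with *miR-195*.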

How the results depend on the processing

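No paired analysis was possible because each condition had 1 library per fraction and no test was made. The counts that follow come without the share of all genes under the same setting, so they only show how the member counts move. Without the filter on low values, 5 members were higher in total RNA with *miR-195*, 11 lower with *miR-497*, 5 lower and 1 higher with *miR-195* than with *miR-497*, and 12 and 4 higher in Ago2-IP RNA with *miR-195* and *miR-497*. With a mean of at least 5 RPKM, 0 and 1 were higher in total RNA with *miR-195* and *miR-497*, 1 was lower between the mimics, 5 were lower and 0 higher in Ago2-IP RNA with *miR-497*, and 4 scored lower with each mimic. A pseudocount of 0.1 left 1 higher in total RNA with *miR-195* and 0 higher in Ago2-IP RNA with *miR-497*. A pseudocount of 1 left 0 higher in total RNA with *miR-195*, 1 lower between the mimics, 7 and 4 lower in Ago2-IP RNA with *miR-195* and *miR-497*, 0 higher with the latter, and 2 and 5 scoring lower. It also turned *CDKN2D* in NT from a low to a high Ago2-IP to total RNA log2 ratio, -1.08 against a median of all genes of -1.46. Without centring, 1 was higher in total RNA with *miR-195*, 5 lower between the mimics, 3 lower and 18 higher in Ago2-IP RNA with *miR-195*, 15 lower and 0 higher with *miR-497*, 50 lower and 1 higher for Ago2-IP against total RNA in NT, 1 lower and 22 higher in score with *miR-195*, and 13 lower and 3 higher with *miR-497*. Upper quartile scaling, also without centring, gave 5 higher in total RNA with *miR-195*. At 2-fold, 6 were lower and 0 higher in total RNA with *miR-195*, 2 lower and 1 higher with *miR-497*, 1 lower between the mimics, 3 and 1 lower in Ago2-IP RNA with *miR-195* and *miR-497*, 0 higher with the latter, 10 lower and 11 higher for Ago2-IP against total RNA in NT, 2 scored lower with *miR-195* and 2 higher with *miR-497*. The difference by seed match in total RNA came to -0.43 (*miR-195*) and -0.24 (*miR-497*) for the 8-base word, and 0.0162 for *miR-497* without the partners, the reverse of -0.05. Apart from what centring, filters and folds do by construction, the cause was not tested. The other 106 summary values stayed within 1.5 times the reported count or close to the reported difference, and of the values of named genes 637 stayed within the counting interval and 178 left it or had none. Depth limits the Ago2-IP library of *miR-497* most, at 1642559 inferred reads.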
